A study of Homo sapiens with 4 samples.

Results

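The 10 genes described here are transcription factors of the ETS family: ETS1, ETS2, ELF1, ELF3, ELF4, EHF, ELK3, ELK4, ERF and GABPA. They were chosen from a named list with earlier results of the same comparison known, in which ETS1 had been lower in the libraries labelled KIF26B siRNA, and all 10 were found among the 58735 genes of the files. The other 18 members of the family are described after them. The question of the comparison was whether the lower level of ETS1 was shared by its relatives.

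RNA was sequenced from HCT116, an established human colorectal carcinoma cell line, 48 h after transfection with siRNA. A control siRNA was used for 2 libraries (replicates 1 and 2) and siRNA against KIF26B, a member of the kinesin family, for the other 2 (replicates 1 and 2). The labels name neither the siRNA sequence used in each library nor whether the replicates came from separate cultures, so the spread between replicates may be technical. The value columns are headed NC_1 and NC_2 for the controls and K_KD1_2 and K_KD2 for the others. What KD1 and KD2 stand for is not given. In migration assays of HCT116 the paper used 2 siRNAs against KIF26B, and it does not say which was sequenced. A difference between siRNAs therefore cannot be told apart from the spread between the libraries labelled KIF26B siRNA. The deposited values are FPKM, sequenced fragments scaled to transcript length and library size, a level that can be compared between genes.

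ETS factors share the ETS domain, a DNA-binding fold that recognises sites with a GGAA core. ETS1 and ETS2 are close relatives that are phosphorylated by ERK at the end of the RAS–MAPK pathway and then bind the coactivators CREBBP and EP300. ELK3 and ELK4 are ternary complex factors that bind DNA together with SRF. ELF3 and EHF are found mainly in epithelia, ELF1 and ELF4 are related to each other, ERF is a repressor that ERK phosphorylation sends out of the nucleus, and GABPA works with the subunit GABPB1 on many promoters of housekeeping and mitochondrial genes.

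The deposited values corresponded to 19172697 to 24829619 recovered reads per library, and mitochondrial genes held 6.83 and 6.84% of the reads in the controls against 9.6 and 7.71% in the libraries labelled KIF26B siRNA. The part of this difference in the results below was not tested. KIF26B itself, the targeted gene, was barely detected. It stood at 0.11 and 0.205 FPKM in the controls (31 and 73 reads) and at 0.14 and 0.0307 FPKM in the libraries labelled KIF26B siRNA (43 and 8 reads). Replicate 1 of the latter lay between the controls and replicate 2 below them, so the targeted gene did not set the groups apart. Every direction below is therefore a direction between labels. The mean of KIF26B was 54.1% of the control mean, with a log2 difference of −0.09 (SE 0.094, adjusted p = 0.775 in limma without a filter). That fit adds 1 to each FPKM before the logarithm, which holds any difference at such low levels near 0. It therefore cannot show if KIF26B fell. Replicates of the control siRNA also lay closer together than those labelled KIF26B siRNA. Over genes with at least 20 reads in a pair, the typical variance within the pair was compared with that of counting alone. It was 2.32 times as large in the controls and 16.2 times in the libraries labelled KIF26B siRNA. The epithelial markers EPCAM and KRT8 were expressed in every library, at 77 to 98.6 FPKM and at 350.1 to 484.9 FPKM. In RNA from a whole culture, fewer cells with a transcript and less of it per cell cannot be told apart.

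ETS proteins bind near the starts of many genes, so the promoters of the 10 genes were searched for the CCGGAAGT motif, an 8-letter ETS site, on both strands. Promoter sequences from RefSeq (250 bases before to 50 after the start) were matched for 9 of the 10 genes, all but ETS1, in the table used here. The motif was found in the promoters of 2 of these 9 genes, ELK4 and GABPA, in 0 of the 13 other ETS genes with an entry, and in 4.95% of all 27305 genes with one. Both sites are shown as 30 bases in the direction of transcription, with the motif in capitals, because they are the ETS sites of this length that the promoters of the list held.
ELK4: cagcccctcccCCGGAAGTgacgtgtagcg
GABPA: acctccgctctACTTCCGGccctggctccg
The ELK4 window lies at chr1:205601143-205601172 (GRCh37, minus strand), with the motif 22 to 15 bases before the start of transcription. The GABPA window lies at chr21:27107205-27107234 (GRCh37, plus strand), with the motif on the opposite strand 67 to 60 bases before the start. The 4-letter core GGAA alone was present in 95.5% of all promoters and distinguishes none of them. A match of letters is a description of the sequence and no measure of binding.

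EHF differed between the groups in the opposite direction to ETS1, and the 250 bases before its first RefSeq start are shown for that reason, with the GGAA core, of which this window holds 1, in capitals.
EHF: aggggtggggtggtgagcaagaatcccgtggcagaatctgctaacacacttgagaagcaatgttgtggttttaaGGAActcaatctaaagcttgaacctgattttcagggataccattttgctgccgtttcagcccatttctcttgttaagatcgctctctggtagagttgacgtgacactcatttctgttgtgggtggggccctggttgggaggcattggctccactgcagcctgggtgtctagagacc
It lies at chr11:34645554-34645803 (GRCh37, plus strand), inside the annotated span of EHF, and no annotated exon falls in it. The CCGGAAGT motif is not in these letters.

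The lower level of ETS1 was not a property of the list as a whole. Of the 10 genes, 4 (ETS1, ELF1, ELF4 and ELK3) were lower in both libraries labelled KIF26B siRNA than in both controls, 2 (EHF and ERF) were higher in both, and 4 (ETS2, ELF3, ELK4 and GABPA) overlapped between the groups. Among the 14523 genes tested, which had a mean of at least 1 FPKM, 27.8% had both libraries below both controls and 24.9% had both above. All 10 genes were among those tested. Their median log2 difference was 0.03, against −0.01 over all genes tested, where a log2 difference is the mean log2(FPKM + 1) of the libraries labelled KIF26B siRNA minus that of the controls. Because these differences had a part in choosing the genes, they are given as descriptions without a test.

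**Figure D1:**
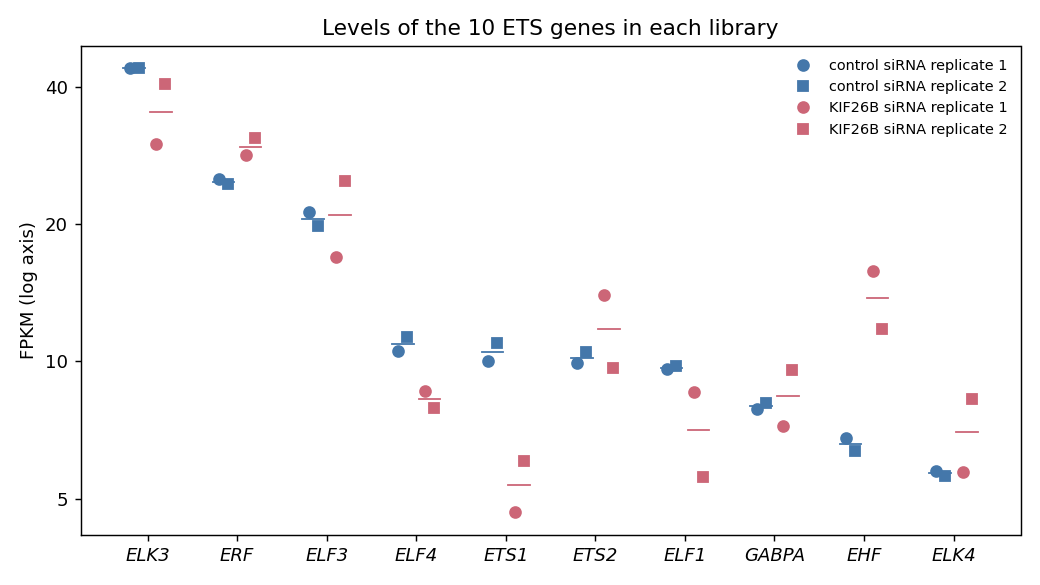
Level of each of the 10 ETS genes in FPKM (logarithmic axis) in each library. Blue marks control siRNA and red marks KIF26B siRNA, with circles for replicate 1, squares for replicate 2 and a horizontal bar for the mean of each pair. The symbols of ETS1, ELF1, ELF4 and ELK3 labelled KIF26B siRNA lie below both controls, those of EHF and ERF above, and the remaining 4 genes overlap.

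Among the controls, the factors spanned 5.68 to 44 FPKM. ELK3 had the highest mean level, 44 FPKM, followed by ERF at 24.8 FPKM and ELF3 at 20.5 FPKM. ELF4, ETS1 and ETS2 followed with means of 10.9, 10.5 and 10.2 FPKM, and ETS1 overlapped with both of these neighbours in the order. ELF1 at 9.7 FPKM, GABPA at 8 FPKM, EHF at 6.58 FPKM and ELK4 at 5.68 FPKM came last. In 7 of the 9 pairs of neighbours the control libraries did not overlap. By the mean of the libraries labelled KIF26B siRNA, ETS1 was last of the 10 and EHF stood directly behind ELK3, ERF and ELF3. In replicate 2 alone, ELF1 was lower than ETS1, at 5.57 against 6.04 FPKM. The replicates there were less alike, and 6 of the 9 neighbouring pairs overlapped.

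ETS1 (ENSG00000134954, chr11:128328656-128457453, GRCh37, minus strand), the factor the list is built around, had 10 and 11 FPKM in the controls, from 1408 and 1938 reads. It had 4.66 and 6.04 FPKM in the libraries labelled KIF26B siRNA, from 712 and 780 reads. Both of the latter were below both controls. The means were 10.5 ± 0.674 and 5.35 ± 0.973 FPKM (SD, n = 2 each), so that 50.9% of the control level was left, with a log2 difference of −0.87 (SE 0.16). The library labelled KIF26B siRNA replicate 1 stood at 44.4% of the control mean and replicate 2 at 57.4%. The reads alone placed replicate 2 at 1.29 times replicate 1 (95% interval 1.17 to 1.44, counting error only).

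ETS2 (ENSG00000157557, chr21:40177107-40196879, GRCh37, plus strand), the nearest relative of ETS1, had 9.92 and 10.5 FPKM in the controls. It had 14 and 9.66 FPKM in the libraries labelled KIF26B siRNA. One of these was above both controls and the other below both, so the groups overlapped. The log2 difference was 0.17 (SE 0.2). Leaving out replicate 1 with the KIF26B siRNA label turned the sign, to −0.07. The ratio of ETS1 to ETS2, which does not depend on the scaling of a library, was 1.01 and 1.05 in the controls and 0.334 and 0.625 in the libraries labelled KIF26B siRNA. ETS1 and ETS2 were thus at about equal levels in both controls, and ETS1 was the lower of them in both other libraries.

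ELF4, ELF1 and ELK3 were the other factors on the list that were lower in both libraries labelled KIF26B siRNA, each by less than ETS1. ELF4 (ENSG00000102034, chrX:129197930-129244691, GRCh37, minus strand), an activator first known from blood cells, had 10.5 and 11.3 FPKM in the controls and 8.62 and 7.91 FPKM in the libraries labelled KIF26B siRNA. Its replicates lay close together in both groups, with means of 10.9 ± 0.548 and 8.27 ± 0.502 FPKM (SD, n = 2 each) and a log2 difference of −0.36 (SE 0.12). ELF1 (ENSG00000120690, chr13:41506060-41635576, GRCh37, minus strand), its broadly expressed relative, had 9.62 and 9.77 FPKM in the controls and 8.58 and 5.57 FPKM in the libraries labelled KIF26B siRNA. Most of its log2 difference of −0.43 (SE 0.22) came from replicate 2, without which it was −0.16, against −0.70 without replicate 1. ELK3 (ENSG00000111145, chr12:96588153-96663602, GRCh37, plus strand), a ternary complex factor that can repress transcription, had 44 FPKM in both controls and 30 and 40.7 FPKM in the libraries labelled KIF26B siRNA. Here replicate 1 was the lower one, at 68.1% of the control mean against 92.4% in replicate 2, and the log2 difference was −0.33 (SE 0.19). Without replicate 1 it was −0.11, and without replicate 2 −0.54.

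EHF and ERF were higher in both libraries labelled KIF26B siRNA. EHF (ENSG00000135373, chr11:34642640-34684835, GRCh37, plus strand), an epithelial ETS factor, had 6.81 and 6.36 FPKM in the controls, from 586 and 688 reads. It had 15.8 and 11.8 FPKM in the libraries labelled KIF26B siRNA, from 1480 and 933 reads. Both were well above both controls, at 240% and 179% of the control mean. The means were 6.58 ± 0.317 and 13.8 ± 2.84 FPKM (SD, n = 2 each), and the log2 difference of 0.95 (SE 0.18) was similar in size to that of ETS1 with the opposite sign. ERF (ENSG00000105722, chr19:42751721-42759280, GRCh37, minus strand), the repressor of the list, had 25.1 and 24.5 FPKM in the controls and 28.4 and 30.9 FPKM in the libraries labelled KIF26B siRNA. The difference was small, 0.25 on the log2 scale (SE 0.12), and the groups did not overlap.

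For ELF3, ELK4 and GABPA the libraries labelled KIF26B siRNA lay on both sides of the controls or between them. ELF3 (ENSG00000163435, chr1:201977073-201986311, GRCh37, plus strand), the epithelial relative of EHF, had 21.3 and 19.8 FPKM in the controls and 16.9 and 24.9 FPKM in the libraries labelled KIF26B siRNA. Its log2 difference was 0.00 (SE 0.22) as a mean of 1 library below both controls and 1 above both, and turned to −0.26 without replicate 2. ELK4 (ENSG00000158711, chr1:205566684-205601139, GRCh37, minus strand), the second ternary complex factor of the list, had 5.76 and 5.61 FPKM in the controls and 5.71 and 8.27 FPKM in the libraries labelled KIF26B siRNA. Its level was therefore above the controls in replicate 2 only, and the log2 difference was 0.24 (SE 0.2). GABPA (ENSG00000154727, chr21:27106881-27144771, GRCh37, plus strand), the DNA-binding subunit of the GABP complex, had 7.87 and 8.12 FPKM in the controls and 7.2 and 9.56 FPKM in the libraries labelled KIF26B siRNA. Its log2 difference was 0.05 (SE 0.17) and turned to −0.13 without replicate 2. Exons of GABPA share 692 bases with ATP5PF on the opposite strand. Exons of ELF3 share 664 bases with ELF3-AS1 on the opposite strand and 664 bases with ENSG00000249007 on the strand of ELF3. Shorter overlaps of exons were annotated for ETS2, ELK3, ELK4 and ERF. No source used here says if reads were assigned by strand, and reads in those stretches cannot be told apart. No overlapping exons were annotated for ETS1, ELF1, ELF4 or EHF.

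Among the listed genes, the controls differed from each other beyond counting error for ETS1 (95% interval of replicate 2 over replicate 1, 1.02 to 1.17) and ELF3 (0.887 to 0.979) only. The 2 libraries labelled KIF26B siRNA differed from each other by more than counting error for 9 of the 10 genes. ELF4 was the exception, with replicate 2 at 0.918 times replicate 1 (95% interval 0.825 to 1.02, counting error only). The share of all genes with such a gap was not counted, but the typical variance within this pair was 16.2 times that of counting alone. Gaps of this kind were therefore not particular to the list. Replicate 2 was higher for ETS1, ELF3, ELK3, ELK4, ERF and GABPA, with the greatest ratio for ELF3, 1.48 (1.4 to 1.55). Replicate 1 was higher for ETS2, ELF1 and EHF, with the most extreme ratio for ELF1, 0.648 (0.576 to 0.73). The differences of ELF1, ELK3, ETS2, ELF3, ELK4 and GABPA from the controls were smaller than the gap between their own replicates with the KIF26B siRNA label.

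**Figure D2:**
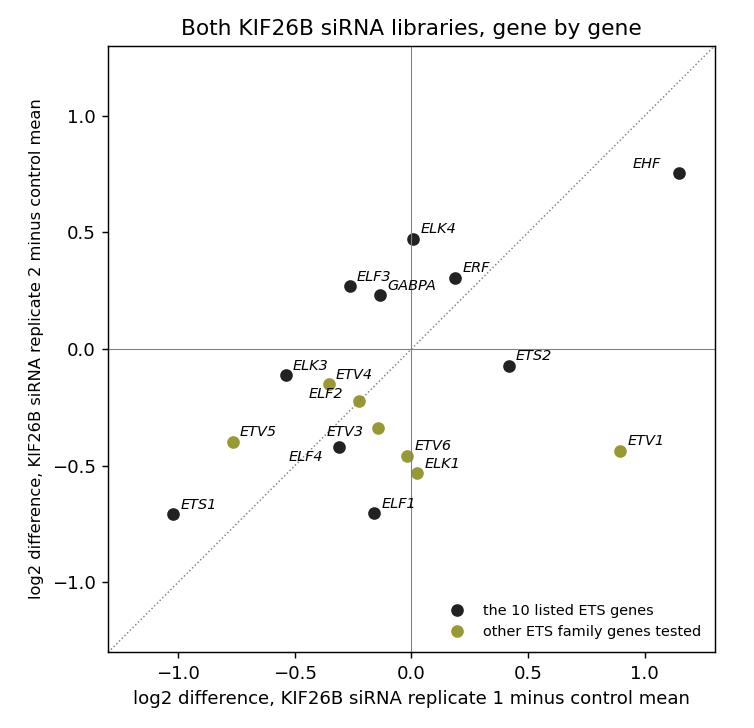
Log2 difference from the control mean, on the log2(FPKM + 1) scale, in replicate 1 (horizontal axis) and replicate 2 (vertical axis) of the libraries labelled KIF26B siRNA, 1 point for each ETS gene tested, with listed genes marked apart from the other members of the family. ETS1 lies at −1.02 and −0.71 and EHF at 1.15 and 0.75, the listed genes farthest from 0 with the same sign in both libraries, whereas ETS2, ELF3 and GABPA change sign between the libraries.

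Summed over all 28 family genes, the level was 230.2 and 230.6 FPKM in the controls. It was lower in both libraries labelled KIF26B siRNA, at 209 and 216.4 FPKM. The summed level of the 10 listed factors was 151 FPKM in each control. In the libraries labelled KIF26B siRNA it lay on both sides of this, at 139.8 and 155.3 FPKM, while its make-up differed. ETS1 made up 6.65 and 7.28% of the sum in the controls and 3.33 and 3.89% in the libraries labelled KIF26B siRNA. EHF made up 4.51 and 4.21% in the controls and 11.3 and 7.58% in the others. ETS1 was thus the more abundant of these 2 factors in both controls, and EHF in both libraries labelled KIF26B siRNA, with EHF at 3.39 and 1.95 times ETS1. Within the epithelial pair, EHF was at 0.32 and 0.321 times the level of ELF3 in the controls and at 0.934 and 0.472 times in the libraries labelled KIF26B siRNA. Within the ternary complex factors, ELK3 exceeded ELK4 by 7.65 and 7.85 times in the controls and by 5.25 and 4.92 times in the other libraries. ELK3 remained the greatest contributor in every library, with 21.5 to 29.2% of the sum.

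**Figure D3:**
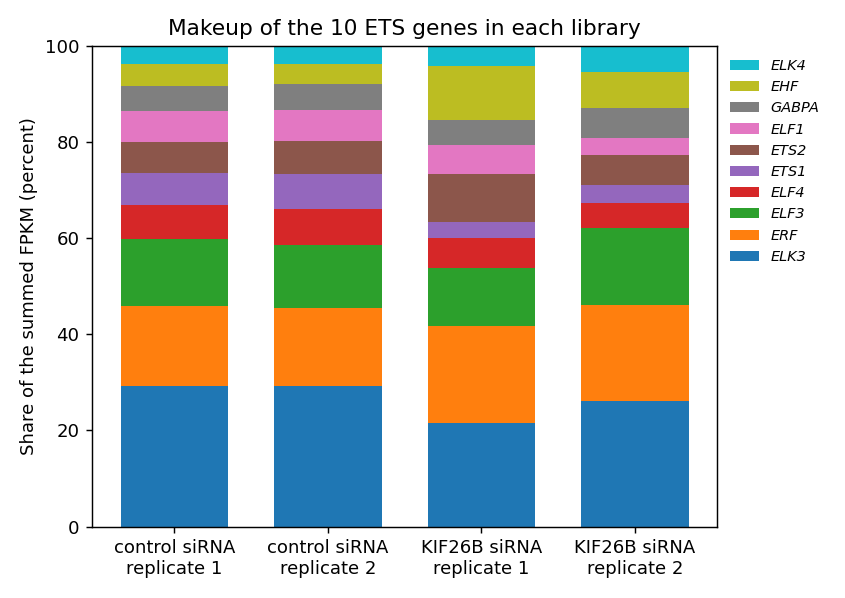
Share of each of the 10 factors in their summed FPKM, in percent, as 1 stacked bar from 0 to 100 for each library. The ETS1 segment shrinks from 6.65 and 7.28% in the controls to 3.33 and 3.89% in the libraries labelled KIF26B siRNA, and the EHF segment grows from 4.51 and 4.21% to 11.3 and 7.58%.

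The remaining 18 genes of the family were compared in the same fit. Of these, 7 passed the level filter, of which 4 (ETV3, ETV4, ETV5 and ELF2) were lower in both libraries labelled KIF26B siRNA than in both controls, 0 were higher in both, and 3 (ETV1, ETV6 and ELK1) overlapped. Over all genes tested, 27.8% were lower in both and 24.9% higher in both. None of the 7 had an adjusted p below 0.05 with limma, which called 0 of 14523 genes (0%) in all. At an unadjusted P below 0.05, limma called 1261 genes lower (8.68%) and 1124 higher (7.74%), and limma-voom on recovered reads called 1472 and 1135 with 0 after adjustment. With a log2 difference beyond −1 or 1 as well, 88 genes (0.606%) were lower and 118 (0.813%) higher in limma. None of the 7 other ETS genes tested was among them. With 2 libraries against 2, an exact permutation test of a single gene cannot give a p below 0.333.

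ETV5, a member of the PEA3 group that ERK signalling induces, was the other ETS gene with the largest difference, and the 1 of the 7 with an unadjusted P below 0.05. It had 18.4 and 19.2 FPKM in the controls and 10.6 and 14 FPKM in the libraries labelled KIF26B siRNA. The means were 18.8 ± 0.539 and 12.3 ± 2.39 FPKM (SD, n = 2 each), and the log2 difference was −0.58 (SE 0.17, limma adjusted p = 0.272), with both libraries below both controls. ETV4, of the same group, had 21.3 and 21.2 FPKM in the controls and 16.4 and 19 FPKM in the others, a log2 difference of −0.25 (limma adjusted p = 0.405). ETV1, the remaining member of the group, went both ways. It had 3.34 and 3.13 FPKM in the controls, and 6.87 and 2.13 FPKM in the libraries labelled KIF26B siRNA, which is 212% and 65.9% of the control mean. Its log2 difference of 0.23 (SE 0.48, limma adjusted p = 0.835) had the widest error of the family and became −0.44 without replicate 1.

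ETV3 and ELF2 were lower in both libraries by small amounts. ETV3, a repressor, had 10.2 and 9.52 FPKM in the controls and 8.81 and 7.58 FPKM in the libraries labelled KIF26B siRNA (log2 difference −0.24, limma adjusted p = 0.424). ELF2, a relative of ELF1, had 3.05 and 3.22 FPKM against 2.54 FPKM in both others (log2 difference −0.22, limma adjusted p = 0.391). ETV6 and ELK1 overlapped, with log2 differences of −0.24 and −0.25 and adjusted p of 0.59 and 0.614. ETV6 was at 4.12 and 3.54 FPKM in the controls and at 3.77 and 2.51 FPKM in the others, and its log2 difference was −0.017 without replicate 2 labelled KIF26B siRNA. ELK1 was at 17.4 and 18.8 FPKM in the controls and at 18.5 and 12.2 FPKM in the others, so only replicate 2 was low, and its log2 difference was 0.026 without it. Over the 17 family members tested, the median log2 difference was −0.24, and 8 were lower in both libraries, 2 higher in both and 7 overlapping. Over all genes tested the median was −0.01, with 27.8% lower in both and 24.9% higher in both. The family count includes the listed genes, which were chosen with this comparison known. The other 11 genes of the family had a mean below 1 FPKM and no more than 36 reads in any library. FLI1 and ETV3L were at 0 reads in every library, which allows up to 3 reads in each.

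**Figure D4:**
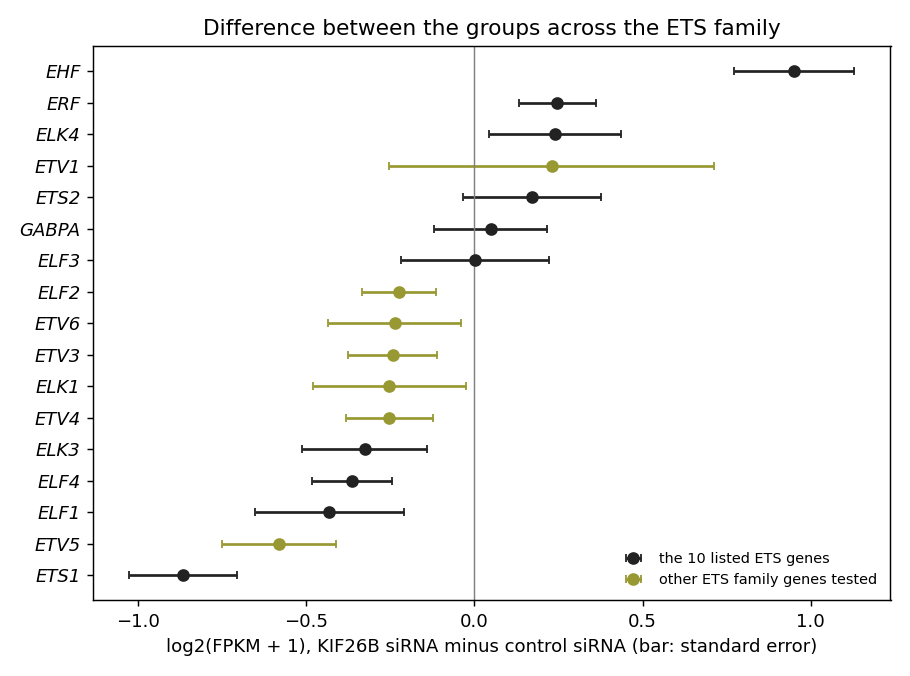
Log2 difference between libraries labelled KIF26B siRNA and control siRNA on the log2(FPKM + 1) scale for the 17 ETS genes tested, with points for the estimate and bars for 1 SE from limma, and the 10 listed genes drawn apart from the 7 others. ETS1 at −0.87 and EHF at 0.95 are at the ends of the range, and the 7 others run from −0.58 for ETV5 to 0.23 for ETV1.

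Proteins that work with or act on ETS factors were examined as a list of 12 genes, of which 11 were tested. Of the 11, 10 had a lower mean in the libraries labelled KIF26B siRNA, 5 were lower in both libraries than in both controls, and 0 had an adjusted p below 0.05 in limma. Of all 14523 genes tested, 7490 had a lower mean and 27.8% had both libraries below both controls. The median log2 difference of the list was −0.19, against −0.01 over all genes tested. CBFB and RUNX1, the subunits of the core-binding factor that binds DNA cooperatively with ETS1, had the largest differences. CBFB had 40.1 and 40.9 FPKM in the controls and 17.4 and 25.8 FPKM in the libraries labelled KIF26B siRNA (log2 difference −0.90, SE 0.22, limma adjusted p = 0.248). RUNX1 had 7.8 and 7.82 FPKM in the controls and 4.19 and 4.84 FPKM in the others (log2 difference −0.68, SE 0.12, limma adjusted p = 0.242). Both subunits were thus lower in both libraries, as ETS1 was. CREBBP, the coactivator, had 6.45 and 6.2 FPKM against 6.06 and 3.09 FPKM, so that its log2 difference of −0.45 (SE 0.3, limma adjusted p = 0.503) came almost wholly from replicate 2. GABPB1 and SRF, added after their values were seen because they pair with GABPA and the ELK factors, overlapped between the groups, with log2 differences of −0.20 (adjusted p = 0.628) and −0.07 (adjusted p = 0.809).

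The genes whose pattern over the 4 libraries was most like that of ETS1 were sought by the distance between profiles of log2(FPKM + 1), each centred on its own mean. Within the family, ETV5 was nearest at a distance of 0.29, followed by ELK3 at 0.552, ELF4 at 0.584 and ETV4 at 0.623, while EHF was at 1.89. Outside the family, the nearest 5 of 13238 genes were PLSCR4 at 0.0489, MIS18A at 0.0681, HPSE at 0.0761, GABRQ at 0.0776 and HPCAL4 at 0.0791. MIS18A, which is needed to load the centromeric histone, had 22 and 23.7 FPKM in the controls and 10.4 and 12.8 FPKM in the libraries labelled KIF26B siRNA. HPSE, the heparanase gene, had 7.56 and 8.24 FPKM against 3.35 and 4.11 FPKM. All 5 share with ETS1 a level in replicate 1 labelled KIF26B siRNA below that in replicate 2, which their selection for a close profile fixed in advance. With 4 libraries, such likeness describes the profiles and says nothing about shared control.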

How the data were processed

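The RNA-seq libraries were made from HCT116 cells with 2 libraries per siRNA label. The submitters' processing notes name HISAT2 2.0.5 and featureCounts 1.5.0-p3. The authors' Methods give hg19 as the genome and the processing notes hg38, and the annotation is not given in the sources used here. The values the authors deposited are FPKM per gene, a unit read from the values. The authors compared the groups with DESeq2, which needs counts, so limma 3.58.1 (R 4.3.3) was applied instead to log2(FPKM + 1) without covariates, keeping genes whose mean reached 1 FPKM, with Benjamini–Hochberg adjustment over 14523 genes. It had 2 residual degrees of freedom. Symbols, coordinates and overlaps come from GENCODE on GRCh37 (56513 of 58735 identifiers matched), and promoters come from RefSeq on GRCh38.p14, placed on GRCh37 by exact match.

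Whole reads were recovered by finding, for each gene, the length at which all 4 FPKM values were whole reads (tolerance 0.01). This succeeded for 99.97% of 34638 genes, and for 2.4% of 2000 genes whose values had been shifted. Intervals of read ratios (95%) cover counting error only. The self-test on simulated data used the same fit. Python 3.11.15, numpy 2.4.6, pandas 2.3.3, scipy 1.17.1 and matplotlib 3.10.9 were used.

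The 10 genes and the other gene lists were chosen with earlier results of these data known. Named were all listed genes, all other ETS genes that passed the filter, up to 4 members of each other list with the largest differences, and the 5 genes nearest to ETS1. The values of 1 member of the partner list are not reported here. Alternatives were a replicate block, other filters, a pseudocount of 0.1, another scaling, limma-voom on recovered reads, and leaving out each library.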

Additional observations from a re-analysis of the deposited data

How the results depend on the processing

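The log2 differences of ETS1 (−1.02 to −0.71) and EHF (0.75 to 1.15) kept their sign under every alternative run, and so did those of ELF1, ELF4, ELK3, ELK4 and ERF. Those of ETS2, ELF3 and GABPA, all within the spread between replicates, changed sign when 1 library labelled KIF26B siRNA was left out, and that of ELF3 also without control replicate 2 and with limma-voom. Among the other genes, ETV1 ranged from −0.44 (without replicate 1 labelled KIF26B siRNA) to 0.90 and ELK1 from −0.53 to 0.026 (without replicate 2) when 1 library was left out. The cause was not tested. The numbers lower and higher at an unadjusted P below 0.05 (1261 and 1124) were 2186 and 2192 without a filter, where more genes were tested, and 234 to 3435 and 265 to 3326 with 1 library left out, when the lone library is assumed to vary like the other group. Beyond a log2 difference of 1 in size, the 88 and 118 genes became 52 and 69 with at least 1 FPKM in every library, 203 and 217 when 0.1 was the pseudocount, 204 and 196 with limma-voom, and 123 to 223 and 156 to 334 with 1 library left out. The 1 other ETS gene at that P became 2 without a filter and 0 to 5 with 1 library left out. Adjusted p below 0.05 was reached by 0 genes in every setting but 1, leaving out replicate 1 labelled KIF26B siRNA (2507 genes). Labels give both groups the replicate numbers 1 and 2, but samples with the same number did not deviate together (correlation −0.00314). With a replicate block the counts were 861 and 864, and 98 and 135 beyond a log2 difference of 1 in size, and 1 other ETS gene stayed at that P. With 2 libraries a group the fits had few degrees of freedom. The typical variance within a pair exceeded that of counting alone, by 2.32 times in the controls and 16.2 times in the libraries labelled KIF26B siRNA.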

Other observations

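Genes known to be controlled by ETS factors were grouped by factor from textbook knowledge. None of the genes tested had an adjusted p below 0.05 in limma, and the lists hold few expressed genes. Of 11 targets of ETS1 and ETS2, 3 passed the level filter. HPSE was lower in both libraries labelled KIF26B siRNA (log2 difference −0.92, SE 0.14, adjusted p = 0.242), PLAU, which encodes urokinase, was higher in both (0.23, adjusted p = 0.454), and MET, the receptor of hepatocyte growth factor, had a log2 difference of −0.05 (adjusted p = 0.846). Their values thus lay on both sides of 0. HPSE is also among the genes nearest to ETS1 in profile.

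The 4 tested of 5 targets of SRF with the ELK factors all had a lower mean, as had 7490 of the 14523 genes tested. EGR1, an immediate early gene, had 74.1 and 78.5 FPKM in the controls and 79.2 and 18.5 FPKM in the libraries labelled KIF26B siRNA, so its log2 difference of −0.97 (SE 0.73, adjusted p = 0.55) came from replicate 2 alone. FOS had a log2 difference of −0.31 (adjusted p = 0.307). Of the 7 targets of GABPA, 5 had a lower and 2 a higher mean (7490 and 7033 of all genes tested), with a median log2 difference of −0.21. They include UTRN, which encodes utrophin (−0.45, adjusted p = 0.272), TFAM, which binds mitochondrial DNA (−0.39, adjusted p = 0.35), and TFB1M, which methylates mitochondrial ribosomal RNA (0.41, adjusted p = 0.384).

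Of 8 targets of the epithelial factors ELF3 and EHF, CLDN7 and TGFBR2 were tested. CLDN7, a claudin of epithelial tight junctions, had 55 and 52.3 FPKM in the controls and 63.1 and 134.2 FPKM in the libraries labelled KIF26B siRNA (log2 difference 0.77, SE 0.4, adjusted p = 0.408). TGFBR2 had a log2 difference of −0.02 (adjusted p = 0.971). The other 6 were below the filter. Named among them after their values were seen, LCN2, an epithelial antibacterial protein, had 5 and 11 reads in the controls and 23 and 40 reads in the libraries labelled KIF26B siRNA, and PTGS2, a prostaglandin synthase, had 32 and 79 reads against 30 and 14.

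Of the 6 epithelial markers tested, KRT8 and KRT18 had an unadjusted P below 0.05 in limma and were lower, as were 8.68% of all genes tested. Their limma adjusted p values were 0.2545 and 0.2424. KRT18 had 244.7 and 242.6 FPKM in the controls and 174.9 and 167.5 FPKM in the libraries labelled KIF26B siRNA, while EPCAM and CDX2 overlapped between the groups. CDH1, which encodes E-cadherin, was lower in both libraries labelled KIF26B siRNA than in both controls (24.1 and 23.9 against 17.7 and 20.2 FPKM), and KRT19 was higher in both (842.1 and 862.1 against 921.4 and 951.3 FPKM). Over all genes tested, 27.8% were lower in both and 24.9% higher in both. None of the 4 blood and 3 endothelial markers listed passed the filter, and PECAM1 among the latter was not matched. Of the fibroblast markers, COL1A1 passed, at 4.74 to 8.69 FPKM, while COL1A2 had at most 1 read and DCN at most 4 reads in any library.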
